A study of Macaca mulatta with 12 samples.

Results

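The TRBV11 family holds 3 variable (V) genes of the T cell receptor beta chain, TRBV11-1, TRBV11-2 and TRBV11-3. A clonotype, which is a distinct nucleotide sequence of the CDR3 junction in 1 library, was assigned to the family when the first V gene listed for it began with TRBV11. By this rule 5020 of 218161 clonotypes in the 8 post-infusion libraries were members. TRBV11-2 held 2636 of them, TRBV11-1 held 1564 and TRBV11-3 held 820. The 4 baseline libraries held 7 members among 165 clonotypes.

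The libraries came from blood mononuclear cells of rhesus macaques, and the study asked how T cell clones changed after infusion of apoptotic donor leukocytes (ADLs), white cells of a donor made apoptotic by a chemical treatment. The animals with post-infusion libraries, Amazo, Nebula and Rocket, were given such cells intravenously under transient immunosuppression (anti-CD40 antibody, rapamycin, tocilizumab and etanercept) and were not transplanted. Libraries were labelled day -5, which is 2 days after the first infusion (n = 3), day -4, which is 3 days after it (n = 3), day 0, which is 7 days after it (Nebula only), and day +3, which the label places 2 days after the second infusion (Amazo only). The series text and a figure legend of the study differ by 1 day on when that infusion was given. The baseline libraries carried other animal codes, are numbered 1 to 4 here, and give no starting point for the named animals.

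Each developing T cell joins a V gene to a D and a J gene, and bases are trimmed and added at random at the joins, so that a CDR3 nucleotide sequence largely marks the descendants of a single cell. The V gene encodes the first CDR3 residues and the loops that mostly contact the MHC molecule, while CDR3 mostly contacts the peptide. The beta locus has a D and J cluster upstream (TRBD1, TRBJ1) and another downstream (TRBD2, TRBJ2), and TRBD1 can join to either J cluster while TRBD2 lies beyond the TRBJ1 genes.

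The largest clonotype of a library held 6.09% to 50.2% of its family counts. Of the clonotypes that led a gene in a library, 5 are shown 5′ to 3′, because each led its gene in more libraries, or with a larger share, than the others. Capitals mark the stretch between the last base aligned to the V gene and the first base aligned to the J gene, which holds the D gene and the added bases.
TRBV11-1 clone a: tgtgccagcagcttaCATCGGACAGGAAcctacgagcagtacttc
TRBV11-1 clone b: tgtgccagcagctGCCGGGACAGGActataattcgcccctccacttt
TRBV11-2 clone a: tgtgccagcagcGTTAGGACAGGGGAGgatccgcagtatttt
TRBV11-2 clone b: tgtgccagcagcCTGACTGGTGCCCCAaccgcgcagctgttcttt
TRBV11-3 clone a: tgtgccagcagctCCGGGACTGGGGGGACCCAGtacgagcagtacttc

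TRBV11-1 clone a was 45 bases long and was assigned to TRBD1 and TRBJ2-7. TRBV11-1 clone b (TRBD1, TRBJ1-6) was 47 bases long, which is not a whole number of codons, so it was out of frame and could not encode a receptor chain. TRBV11-2 clone a (TRBD1, TRBJ2-3) had 42 bases and TRBV11-2 clone b (TRBD2, TRBJ2-2) had 45. TRBV11-3 clone a (TRBD2, TRBJ2-7) had 48 bases, of which 20 lay between V and J. The start of the CDR3 did not separate the 3 genes. The most frequent first 13 bases among clonotypes with at least that many V-encoded bases were the same for each gene, tgtgccagcagct, in 95.4% of TRBV11-1, 95.9% of TRBV11-2 and 95.2% of TRBV11-3 clonotypes that matched 1 V gene only.

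Several libraries went against their labels. The libraries labelled Amazo day -5 and Amazo day +3 shared 51 TRBV11 CDR3 sequences with each other, and shared 33 to 59 with the Rocket libraries. The Rocket libraries shared 37 with each other. The library labelled Amazo day -4 shared 7 of its 409 TRBV11 sequences (1.71%) with Amazo day -5, 3 with Amazo day +3 and at most 3 with any library of another name. The 3 Nebula libraries shared 14 to 33 with each other and at most 3 with any other. The 8 libraries thus fell into 3 sets by shared sequences, Amazo day -5 with Amazo day +3 and both Rocket libraries, the Nebula libraries, and Amazo day -4 alone. The other V genes fell into the same sets, so the sets are not particular to TRBV11. Of Amazo day -5 sequences, Amazo day -4 held 0.750% for other V genes and 0.816% for TRBV11. Rocket day -4 held 7.52% and 6.53% of them. Of Nebula day -5 sequences, Nebula day -4 held 4.86% and 2.42%, in the same order. Counts over 8 libraries below therefore stand for fewer than 8 independent repertoires. At day -5, Amazo and Rocket shared a repertoire, so an SD or p over those 3 libraries rests on fewer independent values. The main comparisons of day -5 with day -4 are given with and without the Amazo pair. They are the family share of counts, the V gene fold changes and the CDR3 length.

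**Figure D1:**
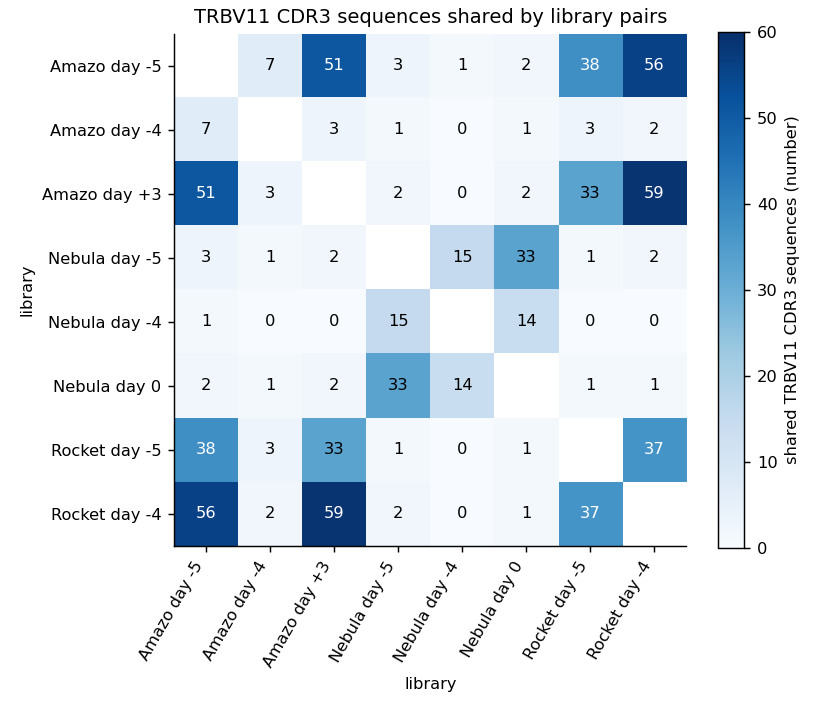
Number of TRBV11 CDR3 nucleotide sequences found in both libraries of each pair, with the libraries on both axes and darker blue for more shared sequences. The 6 pairs among Amazo day -5, Amazo day +3 and the Rocket libraries shared 33 to 59 sequences, while Amazo day -4 shared at most 7 with any library.

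Over the 8 libraries there were 4756 distinct TRBV11 sequences, of which 4517 were seen in 1 library, 177 in 2, 41 in 3 and 21 in at least 4. None was seen in all 8, and 19 were present in each of Amazo day -5, Amazo day +3, Rocket day -5 and Rocket day -4. The 3 Nebula libraries had 8 in common. The share of members found again differed by pair and by size. From Amazo day -5 to day +3, 1 of 80 members with 1 count was found again, 29 of 690 with 2 to 9 counts (4.20%) and 21 of 88 with at least 10 counts (23.9%, 95% Wilson interval 16.2% to 33.7%). From Nebula day -5 to day 0, 8 of 152 members with 2 to 9 counts (5.26%) and 25 of 392 with at least 10 counts (6.38%) were found again. From Rocket day -5 to day -4 it was 7 of 65 with 2 to 9 counts (10.8%, interval 5.32% to 20.6%) and 28 of 338 with at least 10 (8.28%, 5.79% to 11.7%). Larger members were thus found again more often in the Amazo day +3 pair, while the intervals of these sizes overlapped in Nebula and Rocket. From Amazo day -5 to day -4, 3 of 88 members with at least 10 counts were found again (3.41%, interval 1.17% to 9.55%).

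Library depth differed widely. Total counts ran from 42695 (Nebula day -4) to 556954 (Rocket day -5) after infusion, in 17061 to 36038 clonotypes, and from 63 to 74 at baseline. The smallest share treated as measurable was 3 counts, which was 0.000539% of Rocket day -5 and 0.00703% of Nebula day -4. Whether the counts are of reads or of molecules could not be checked, so they may not be independent. Wilson intervals and the 3-count limit therefore cover counting error only, and p-values measure the spread between these libraries. Some TRBV11 clonotypes were 1 mismatch from a clonotype with at least 10 times their counts. They were 58 of 482 in Rocket day -5, 46 of 619 in Nebula day -5 and 28 of 409 in Amazo day -4. Amazo day -5 held 7 of 858, and Rocket day -4 and Nebula day -4 held 0. These clonotypes took at most 0.604% of family counts in any library. They were kept, and their part in results that count each clonotype once was not tested.

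The family as a whole took 1.73% to 2.73% of TRB counts after infusion. The day -5 libraries gave it 2.43% of counts (Amazo), 1.82% (Nebula) and 2.40% (Rocket). At day -4 the shares were 2.40%, 1.73% and 2.46%, in that order. The share was 1.79% in Nebula day 0 and 2.73% in Amazo day +3. The Nebula libraries were the 3 lowest, and their counting intervals overlapped between neighbours (1.79% to 1.87% at day -5, 1.74% to 1.84% at day 0 and 1.61% to 1.86% at day -4). Rocket day -4, Amazo day -5, Rocket day -5 and Amazo day -4 also could not be ordered by their intervals, and Amazo day +3 stood above all others (2.67% to 2.79%). The day -5 mean was 2.22% ± 0.340 and the day -4 mean 2.19% ± 0.405 (SD, n = 3). The difference of -0.0220 percentage points lay within the SD of the paired differences, 0.0777 (1 of 3 pairs higher at day -4, p = 0.75 by exact sign-flip permutation, where 3 pairs cannot go below 0.25). It was -0.0187 without the Amazo pair, -0.0625 without Rocket and 0.0150 without Nebula. These shares are of TRB transcripts, so more cells and more receptor RNA per cell cannot be told apart.

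Within this total, the 3 genes had different patterns over the libraries. TRBV11-1 took 1.44% of counts in Amazo day -5, 0.451% in Amazo day -4 and 1.64% in Amazo day +3. In Nebula it took 0.637% at day -5, 0.705% at day -4 and 0.680% at day 0, and in Rocket 1.60% and 1.42% at days -5 and -4. TRBV11-1 was thus above 1.4% in the 4 libraries that shared a repertoire and below 0.71% in the other 4, with no overlap. The order was Amazo day +3, Rocket day -5, Amazo day -5, Rocket day -4, Nebula day -4, Nebula day 0, Nebula day -5 and Amazo day -4. Counting intervals overlapped between Amazo day +3 and Rocket day -5, between Amazo day -5 and Rocket day -4, and between neighbouring Nebula libraries.

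TRBV11-2 was the most even gene by counts. Its share of counts was 0.806% in Amazo day -5, 1.22% in Amazo day -4 and 0.910% in Amazo day +3. It was 0.764%, 0.653% and 0.708% in Nebula at days -5, -4 and 0, and 0.683% and 0.838% in Rocket at days -5 and -4. Outside Amazo day -4, the highest share was 1.39-fold the lowest.

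TRBV11-3 had the fewest counts of the 3 genes in every library but Amazo day -4, where TRBV11-1 had fewer, and its share varied most, 6.35-fold between the highest and the lowest library. It took 0.178% of counts in Amazo day -5, 0.729% in Amazo day -4 and 0.183% in Amazo day +3. In Nebula it took 0.424%, 0.370% and 0.401% at days -5, -4 and 0, and in Rocket 0.115% and 0.194% at days -5 and -4. Amazo day -4 was highest, the 3 Nebula libraries followed with neighbouring intervals that overlapped, and the 4 libraries with a shared repertoire were lowest.

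Counting each clonotype once gave a different picture. The family share of clonotypes was 2.44% at day -5 and 1.57% at day -4 in Amazo, 2.04% and 1.91% in Nebula, and 2.83% and 2.76% in Rocket. It was thus lower at day -4 in 3 of 3 pairs, by most in the Amazo pair, with a mean difference of -0.354 percentage points (exact sign-flip permutation p = 0.25, the smallest that 3 pairs allow). That mean includes the Amazo pair, and no mean without it was taken. TRBV11-2 contributed 1.44% to 1.67% of clonotypes in Amazo day -5, Amazo day +3 and the Rocket libraries, 0.777% to 0.949% in Nebula and 0.661% in Amazo day -4. Its 2.52-fold range was the widest of the 3 genes by clonotypes. TRBV11-1 contributed 0.596% to 0.909% of clonotypes in all 8 libraries, a 1.53-fold range against 3.63-fold for its counts. TRBV11-3 contributed 0.299% to 0.468%, a 1.57-fold range. TRBV11-2 was therefore the gene with the most clonotypes in every library, while TRBV11-1 had the most counts in 5 of 8.

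Single clonotypes accounted for much of the spread in TRBV11-1 counts. For TRBV11-2 the range was as wide without them, but between other libraries. With the largest clonotype of the gene left out of each library, the TRBV11-1 share ran only from 0.383% to 0.568% over the 8 libraries, a 1.48-fold range against 3.63-fold with it. The TRBV11-2 share ran from 0.469% to 0.874%, a 1.86-fold range both with and without it. Amazo day -4 was the highest library with its largest TRBV11-2 clonotype (1.22%) and the lowest without it (0.469%). Outside Amazo day -4 the TRBV11-2 range was 1.39-fold in both cases. The TRBV11-3 share still ran from 0.110% to 0.414% (3.76-fold), lowest in Rocket day -5 and highest in Nebula day -5.

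**Figure D2:**
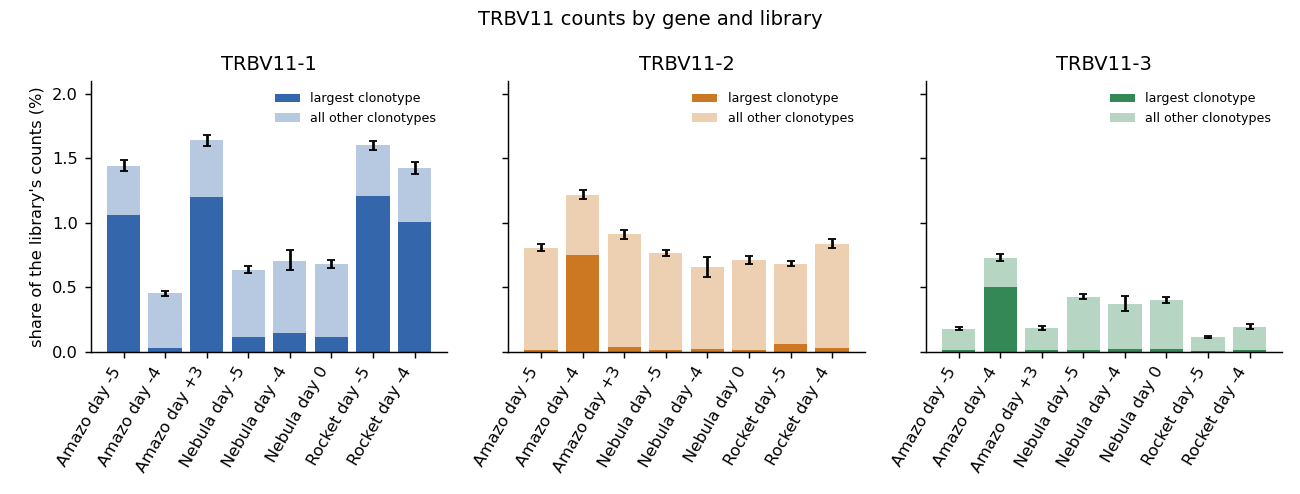
Share of each library's counts (%) taken by TRBV11-1, TRBV11-2 and TRBV11-3 in the 8 post-infusion libraries, with the largest clonotype in the dark part of each bar, all others in the pale part, and 95% Wilson intervals for the total. The dark part is large in 4 libraries for TRBV11-1 (1.00% to 1.20%) and in Amazo day -4 alone for TRBV11-2 (0.749%) and TRBV11-3 (0.501%).

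TRBV11-1 clone a was the largest clonotype of the family. It took 1.06% of counts in Amazo day -5 (3691 counts), 1.20% in Amazo day +3 (3632 counts), 1.20% in Rocket day -5 (6705 counts) and 1.00% in Rocket day -4 (2607 counts). It had 3 counts in Amazo day -4, 4 in Nebula day -5, 0 in Nebula day -4 and 2 in Nebula day 0. It was the 11th to 14th largest of all clonotypes in the 4 libraries where it was high, and the other 4 libraries were near the measurable limit. Its share was 1.20-fold lower at day -4 than at day -5 in Rocket (95% counting interval 1.15 to 1.26) and 1.13-fold higher at day +3 than at day -5 in Amazo (1.08 to 1.18). Between the libraries labelled Amazo day -5 and day -4 it was 1387-fold lower (474 to 6729).

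TRBV11-1 clone b, the out-of-frame sequence, was the largest TRBV11-1 clonotype in the 3 Nebula libraries. It took 0.111% of counts at day -5 (474 counts), 0.145% at day -4 (62 counts) and 0.112% at day 0 (290 counts). Elsewhere it had 1 count in Amazo day -5 and 0 in the other 4 libraries. Its share at day -4 was 1.31 times that at day -5, with a counting interval of 0.985 to 1.70, and its share at day 0 was 1.01 times that at day -5 (0.870 to 1.17), so no change was detectable at this depth.

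TRBV11-2 clone a was the 7th largest of all clonotypes in Amazo day -4, with 2938 counts (0.749%) and 61.5% of the counts of its gene. It had 39 counts in Amazo day -5 (0.0112%), 19 in Amazo day +3 (0.00626%) and 0 in the Nebula and Rocket libraries. Amazo day -4 was 66.8-fold higher than Amazo day -5 (48.8 to 94.2).

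TRBV11-3 clone a was the 10th largest clonotype in the same library, with 1967 counts (0.501%) and 68.8% of the counts of its gene. It had 34 counts in Amazo day -5 (0.00977%) and 0 in the other 6 libraries. Amazo day -4 was 51.3-fold higher than Amazo day -5 (36.6 to 74.3). TRBV11-1 clone c, a smaller clonotype with 106 counts in Amazo day -4 and 0 in every other library, was at least 31.3-fold higher there than in Amazo day -5, taking 3 counts as the limit. Amazo day -4 and Amazo day -5 thus had different leading clonotypes of TRBV11-1 and TRBV11-2, while clone a led TRBV11-3 in both.

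TRBV11-2 clone b was the largest TRBV11-2 clonotype in the 4 libraries with a shared repertoire, but a small one. It took 0.0146% of counts in Amazo day -5, 0.0359% in Amazo day +3, 0.0557% in Rocket day -5 and 0.0281% in Rocket day -4, and 0 counts in Amazo day -4 and the Nebula libraries. It was 2.45-fold higher at day +3 than at day -5 in Amazo (1.74 to 3.49) and 1.98-fold lower at day -4 than at day -5 in Rocket (1.53 to 2.59). Beside TRBV11-1 clone c, the other 9 clonotypes that led a gene in a library had 7 to 52 counts there. None of the 15 leading clonotypes was found at baseline. Those libraries carried other animal codes, and 3 counts were 4.05% to 4.76% of them, above the share of any leading clonotype. Absence there thus does not show whether a clonotype was present before infusion.

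**Figure D3:**
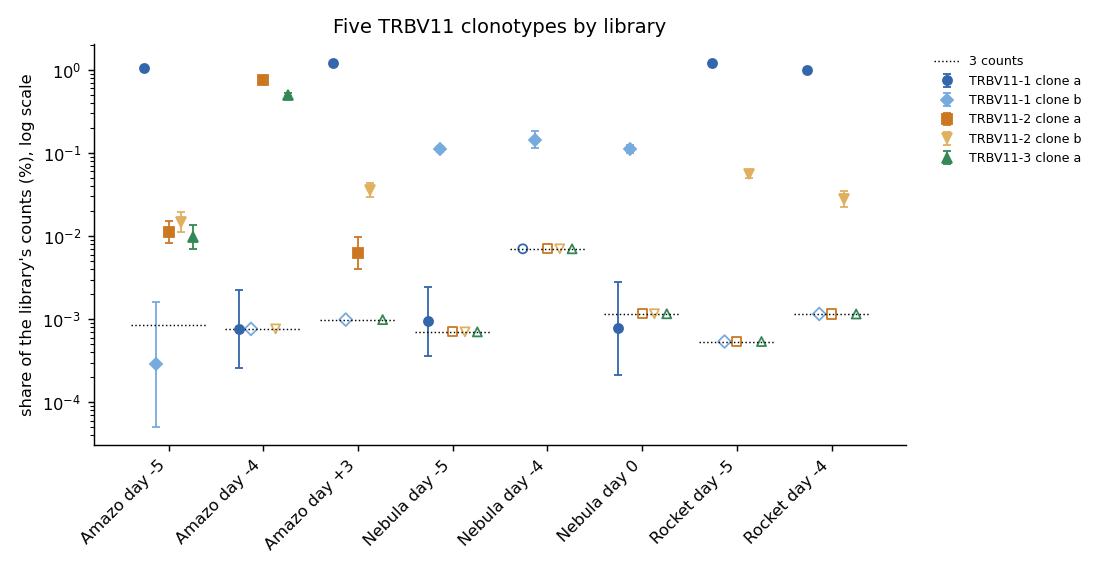
Share of counts (%, log scale) of 5 TRBV11 clonotypes in the 8 post-infusion libraries, with 95% Wilson intervals. Dotted lines mark 3 counts and open symbols on them are clonotypes with 0 counts. TRBV11-1 clone a sits at 1.00% to 1.20% in 4 libraries, and TRBV11-2 clone a and TRBV11-3 clone a reach 0.749% and 0.501% in Amazo day -4.

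Clonotypes of at least 0.1% in either library of a pair were then followed over time, with at least 2-fold counted as changed. With 1 library per time point there is no replicate check. From Amazo day -5 to day -4, 81 clonotypes of all V genes were followed, of which 58% were lower and 42% higher. All 3 TRBV11 clonotypes among them changed, clone a of TRBV11-1 downwards and the leading clonotypes of TRBV11-2 and TRBV11-3 upwards, as did every clonotype of any V gene in that pair. In the other pairs 1 TRBV11 clonotype was followed each, and none changed 2-fold. The background from Nebula day -5 to day -4 was 0% lower and 8% higher of 25 clonotypes, and to day 0 it was 8.7% lower and 0% higher of 23. In Rocket it was 1.92% lower and 0% higher of 52, and from Amazo day -5 to day +3 it was 10.2% lower and 0% higher of 49.

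The study listed 3 combinations of TRBV11 with D and J genes, chosen on these samples, so their values are no independent evidence. TRBV11-1 with TRBD1 and TRBJ2-7 took 1.03% to 1.23% of counts in Amazo day -5, Amazo day +3 and both Rocket libraries and 0.0237% to 0.0495% in the others. In the first 4, clone a was 96.5% to 98.2% of the combination, which held 12 to 31 clonotypes in all. TRBV11-2 with TRBD1 and TRBJ2-3 took 0.763% in Amazo day -4 and 0.0361% to 0.0586% elsewhere. TRBV11-3 with TRBD2 and TRBJ2-7 took 0.513% in Amazo day -4 and at most 0.0108% elsewhere, with 0 counts in Amazo day +3 and Nebula day -4. Each combination was thus made up mostly of 1 clonotype where its share was high.

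Counts summed per V gene were compared between day -4 and day -5 in all V genes at once, with the animal as a block. None of the 3 members was called, against a background of 0% of 57 V genes at an adjusted p below 0.05 (edgeR quasi-likelihood test, Benjamini-Hochberg adjustment over all 57). Without adjustment 0 of 57 passed in edgeR and 5 in DESeq2, which called 0 after adjustment. The log2 fold change was -0.64 (SE 0.43) for TRBV11-1, 0.14 (SE 0.24) for TRBV11-2 and 0.78 (SE 0.49) for TRBV11-3, with edgeR adjusted p values of 0.627, 0.809 and 0.627. The median over all V genes was -0.014. Without the Amazo pair the 3 values were -0.11, -0.031 and 0.22, so most of their size and the direction of TRBV11-2 rested on that pair. Without Nebula they were -0.99, 0.37 and 1.33. With the largest clonotype of every V gene left out of each library, and the Amazo pair included, they were -0.024, -0.34 and 0.18.

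At baseline, the family had 0, 4, 1 and 4 counts in libraries 1 to 4, or 0%, 6.35%, 1.35% and 5.71%, and TRBV11-3 was not the first hit of any clonotype. A count of 0 in baseline library 1 allows a share of up to 4.11%. The baseline mean was 3.35% ± 3.15 (SD, n = 4). The difference from baseline was -1.14 percentage points at day -5 and -1.16 at day -4, within the baseline spread (exact permutation p = 0.571 for both, where the smallest possible is 0.0571). It was -2.26 and -2.28 without baseline library 1, -1.80 and -1.83 without library 3, -0.350 and -0.372 without library 4, and -0.139 and -0.161 without library 2. All 7 baseline members matched more than 1 V gene. When clonotypes with several V genes were left out, the baseline share was 0% in each library and the difference turned to 2.43 percentage points higher at day -5 and 2.38 higher at day -4 (exact permutation p = 0.0571 for both). Depth and V assignment differed between all baseline and all post-infusion libraries, so they cannot be told apart from infusion.

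After infusion the V assignment was ambiguous for 10.9% of TRBV11-2 clonotypes (5.03% of its counts), 2.43% of TRBV11-1 and 0.488% of TRBV11-3. All 287 ambiguous TRBV11-2 clonotypes listed TRBV11-1 as well. The ambiguous share of TRBV11-2 clonotypes ran from 3.41% in Nebula day 0 to 17.8% in Rocket day -4, and its part in the TRBV11-2 clonotype shares was not tested.

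TRBV11 was joined to the TRBJ2 cluster more often than other V genes were, in every library. At day -5 the cluster was used by 73.8% of productive TRBV11 clonotypes in Amazo, 68.6% in Nebula and 75.7% in Rocket, each clonotype counted once. The shares for all other V genes were 64.7%, 57.9% and 64.9%. The mean difference was 10.2 percentage points ± 0.950 (SD, n = 3), higher in 3 of 3 libraries (exact sign-flip permutation p = 0.25, the smallest that 3 libraries allow). At day -4 it was 8.13 ± 2.29 (SD, n = 3), and weighting clonotypes by counts gave 16.6 at day -5. Without Amazo the day -5 difference was 10.8. Over all 8 libraries the difference ran from 4.60 to 10.8 percentage points, and the ranges did not overlap (65.3% to 75.7% for TRBV11, 57.7% to 64.9% for the others).

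The individual J genes showed where the difference lay. TRBJ1-2 took 3.97% of TRBV11 clonotypes on average over the 8 libraries against 7.78% of the others, and TRBJ1-4 took 5.36% against 8.98%. TRBJ1-5 took 5.27% against 7.29%. These 3 were lower with TRBV11 in 8 of 8 libraries, with mean differences of -3.81, -3.61 and -2.02 percentage points. On the other side, TRBJ2-1 took 13.8% against 11.05% and TRBJ2-3 took 11.96% against 9.84%, both higher in 8 of 8 libraries. TRBJ2-2 took 9.58% against 7.95%, higher in 7 of 8.

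The members differed in J use among themselves. The TRBJ2 cluster took 71.6% of TRBV11-1 clonotypes and 71.1% of TRBV11-2 clonotypes on average, each above the other V genes in 8 of 8 libraries, and 64.4% of TRBV11-3 clonotypes, above them in 4 of 8. Among the 47 V genes with at least 20 productive clonotypes in every library, TRBV11-1 and TRBV11-2 ranked 6th and 7th for the TRBJ2 cluster and TRBV11-3 19th. TRBV11-1 ranked last for TRBJ1-2, with 1.92% of its clonotypes against a median of 7.34% over these V genes. TRBJ2-6 took 5.64% of TRBV11-2 clonotypes on average, 2.39% of TRBV11-1 and 2.50% of TRBV11-3, against 3.82% of the other V genes. TRBV11-2 was above the other V genes in 7 of 8 libraries, with its highest value in Amazo day -4 (11.3%, 16 of 141 clonotypes). At day -5 the TRBJ2-6 means were 3.94% for TRBV11-2, 3.96% for the other V genes, 3.798% for TRBV11-3 and 2.41% for TRBV11-1. The contrast of TRBV11-2 with TRBV11-3 was thus nearly absent at day -5. TRBJ2-7 took 15.0% of TRBV11-1 clonotypes, above the other V genes in 8 of 8 libraries, and 10.2% of TRBV11-2 and 11.2% of TRBV11-3.

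**Figure D4:**
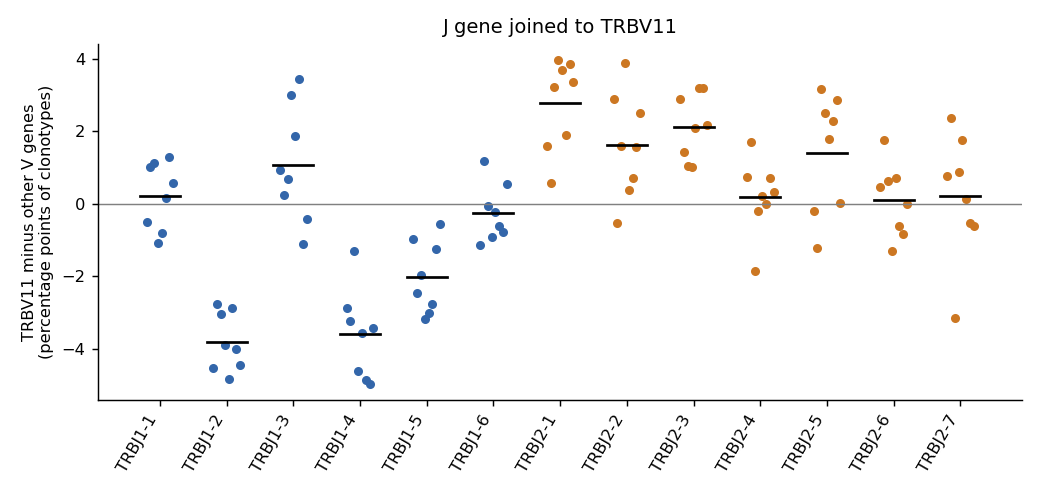
Difference in J gene use between TRBV11 and all other V genes (percentage points of productive clonotypes, each counted once), with 1 point per post-infusion library, a black line for the mean of 8, blue for TRBJ1 and orange for TRBJ2 genes. TRBJ1-2 and TRBJ1-4 lie below 0 in every library (means -3.81 and -3.61), and TRBJ2-1 and TRBJ2-3 above 0 in every library.

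D gene assignment differed little for the family sum. TRBD1 was assigned to 51.2% of TRBV11 clonotypes and 50.7% of the others on average, TRBD2 to 23.9% and 24.0%, and none to 24.9% and 25.3%. The members differed in the share with no D gene assigned, which was 22.1% for TRBV11-1, 25.7% for TRBV11-2 and 27.9% for TRBV11-3. TRBV11-1 was below both other members in 8 of 8 libraries and below the other V genes in 7 of 8.

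CDR3 length differed between the members by a fraction of a residue. The mean length of productive clonotypes, each counted once, was 14.7 ± 0.0641 amino acids for TRBV11-2, 14.5 ± 0.109 for TRBV11-1 and 14.3 ± 0.209 for TRBV11-3, against 14.5 ± 0.0509 for all other V genes (SD over 8 libraries). TRBV11-2 was longer than TRBV11-3 in 8 of 8 libraries, by 0.129 to 0.779 residues, and longer than TRBV11-1 in 8 of 8, by 0.0865 to 0.355. TRBV11-1 was longer than TRBV11-3 in 8 of 8, by 0.0426 to 0.468. TRBV11-2 exceeded the other V genes in 8 of 8 libraries (0.152 to 0.439), and TRBV11-3 did so in 1 of 8. The order turned with weighting by counts, which gave 14.7 residues for TRBV11-1, 14.6 for TRBV11-2 and 14.5 for TRBV11-3, with TRBV11-2 above TRBV11-1 in 3 of 8 libraries and above TRBV11-3 in 6 of 8. Within single libraries several of these differences were no larger than the standard errors over clonotypes, which were 0.0760 to 0.235 residues for the 3 genes.

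**Figure D5:**
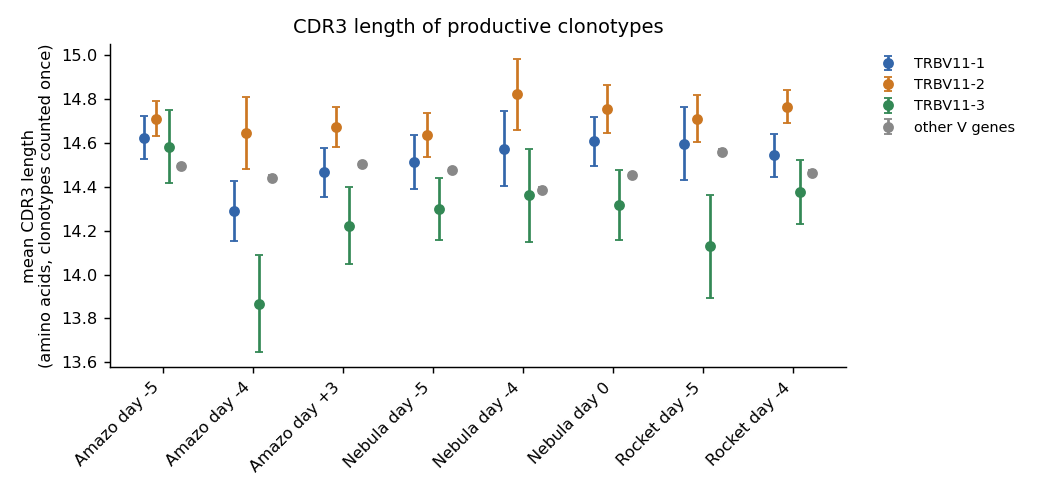
Mean CDR3 length (amino acids) of productive clonotypes of TRBV11-1, TRBV11-2, TRBV11-3 and all other V genes in the 8 post-infusion libraries, each clonotype counted once, with the standard error over clonotypes. TRBV11-2 lies above TRBV11-1 and TRBV11-1 above TRBV11-3 in every library.

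For the family together, the length at day -5 averaged 14.6 residues against 14.5 for other V genes, a difference of 0.0970 ± 0.0706 (SD, n = 3) that was positive in 3 of 3 libraries (exact sign-flip permutation p = 0.25). It was 0.0569 without Amazo and 0.396 when clonotypes were weighted by counts. The TRBV11 length at day -4 minus day -5 was -0.0657 ± 0.231 residues (SD, n = 3, positive for 2 of 3 pairs, p = 1 by exact sign-flip permutation), 0.0659 without the Amazo pair, -0.151 without Nebula and -0.111 without Rocket. Clonotypes of 12 residues or fewer made up 9.41% of TRBV11 and 11.3% of other clonotypes on average, lower with TRBV11 in 8 of 8 libraries.

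The parts of the junction were compared next. TRBV11 clonotypes had 13.4 V-encoded bases of CDR3 on average against 12.9 in the others, more in 8 of 8 libraries. The bases trimmed from the V end differed less, 2.61 on average for TRBV11 against 2.72 for the others. The stretch between V and J was 13.1 bases for TRBV11-2, 12.8 for TRBV11-1 and 12.2 for TRBV11-3, against 13.1 for the others. TRBV11-3 was below the other V genes in 8 of 8 libraries, by 0.259 to 2.04 bases, and below TRBV11-2 in 8 of 8. The short CDR3 of TRBV11-3 thus lay with a shorter stretch between V and J, while its V-encoded part, 13.3 bases, was longer than that of the other V genes.

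Non-productive clonotypes, which are out of frame or hold a stop codon, were more frequent in the family in every library. At day -5 they made up 12.4% of TRBV11 clonotypes in Amazo, 9.53% in Nebula and 16.2% in Rocket, against 7.21%, 8.86% and 10.99% of the others. The difference was 3.67 percentage points ± 2.59 (SD, n = 3, exact sign-flip permutation p = 0.25) and was positive in 8 of 8 libraries. TRBV11-3 reached 39.2% in Rocket day -5 (20 of 51 clonotypes) and 20.5% in Rocket day -4, and ranged from 8.54% to 16.5% elsewhere. Over the 47 V genes its mean of 16.3% ranked 2nd, TRBV11-1 (11.8%) ranked 6th and TRBV11-2 (11.6%) 8th, against a median of 6.86%.

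The pattern of each gene over the 8 libraries was compared with 55 other V genes by Pearson's r of log2(percent + 0.01), as a description over libraries of which 4 share a repertoire. Most like TRBV11-1 were TRBV5-4 (r = 0.991), TRBV19 (0.983) and TRBV28 (0.960). Most like TRBV11-2 were TRBV15 (0.921), TRBV6-4 (0.843) and TRBV7-7 (0.817), and most like TRBV11-3 were TRBV24-1 (0.983), TRBV2-1 (0.981) and TRBV16 (0.969). TRBV6-4 took only 0.00232% to 0.0326% of counts, around the 0.01 added, so its r rests partly on that value. TRBV16 was also near it at its lowest (0.0163%). The closest genes thus differed for each member, and for the family sum TRBV21-1 was closest (0.961).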

How the data were processed

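TRB transcripts of rhesus blood mononuclear cells were amplified from template-switch cDNA and read on a MiSeq. Trimmomatic was used by the authors for trimming, and MiXCR at default settings for clone assembly against known rhesus TRB segments. The deposited clone count of each file is a whole number and was not normalized, and the deposited clone fraction is that count over the file total. No genome build was needed and its name is not given in the sources used here. The study describes collapsing by molecular barcode and a clone fraction limit of 0.5%, but the tables have no barcode column and hold smaller clones, so all rows were used. Unmapped sample columns numbered 0.

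Clonotypes were distinct CDR3 nucleotide sequences, with V, D and J taken from the first hit. TRBV11-1 and TRBV11-2 matched ENSMMUG00000062169 and ENSMMUG00000062897 in the gene name table. Shares carry 95% Wilson intervals, and fold changes of single clonotypes carry exact binomial ones. Paired values were tested by exact sign-flip permutation (two-sided) and differences from baseline by exact permutation. V genes that reached 10 counts in 3 or more libraries were tested with edgeR 4.0.16 (TMM, quasi-likelihood) in R 4.3.3, with DESeq2 1.42.0 as an alternative. The SE of a log2 fold change was derived from the F statistic. Everything else ran in Python 3.11.15 (scipy 1.17.1, pandas 2.3.3, numpy 2.4.6, matplotlib 3.10.9). The exact tests were checked on small sets of values with known answers. The V gene fits were checked on simulated counts, with deeper libraries and larger changes than those of the TRBV11 genes.

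Day -5 and day -4 libraries were paired by the animal name in the labels. The correlation of deviations from the day means over 58 V genes was 0.865 in Nebula, 0.726 in Rocket and -0.226 in Amazo. Named clonotypes were the largest of each gene in each library. Named J genes were those with the 3 largest and 3 most negative mean differences, with TRBJ2-6 and TRBJ2-7 added after their values were seen. Named V genes were the 3 with the highest r. The members and lists were chosen with earlier results of these data known.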

Additional observations from a re-analysis of the deposited data

How the results depend on the processing

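The permutation tests could not pass the threshold in this design, with 0.25 the smallest p for 3 pairs, 0.5 for 2 pairs and 0.0571 against baseline, so they say nothing about stability. Leaving out 1 pair at a time moved the day -4 minus day -5 difference of the family share between -0.0625 (without Rocket) and 0.0150 percentage points (without Nebula). The mean CDR3 length difference moved between -0.151 (without Nebula) and 0.0659 residues (without Amazo). The number of V genes called moved between 0 and 4, with 4 called without Amazo and 1 without Nebula, none of them TRBV11. The log2 fold change of TRBV11-1 ranged from -0.99 to -0.11, of TRBV11-2 from -0.031 to 0.37 and of TRBV11-3 from 0.22 to 1.33, in each case nearest 0 or negative without Amazo and largest without Nebula. TRBV11-2 turned to -0.42 with each clonotype counted once and to -0.34 with the largest clonotype of each V gene left out, an alternative chosen after seeing the data. With a single V gene among the hits, the difference from baseline turned to 2.43 percentage points at day -5 and 2.38 at day -4, because no baseline member was left. Restricting clonotypes to at least 0.1% in the earlier library reduced the 3 changed TRBV11 clonotypes from Amazo day -5 to day -4 to 1. Fits with no replicate block kept each direction. The non-productive share was added after seeing the data. The main limits are the baseline depth of 63 to 74 counts, a single library per time point and animal, the 3-pair design, and the libraries labelled Amazo.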
